A study of Mus musculus with 12 samples.

Results

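The genes described here are the nuclear genes that encode subunits and assembly factors of oxidative phosphorylation complexes II to V. They were matched by symbol (the Sdh, Uqcr, Uqcc, Cox4 to Cox8, Cox10 to Cox19 and Atp5 families, without pseudogenes), and 63 of the 56691 genes in the count table matched. Complex II accounted for 8 of them, complex III for 11, complex IV for 26 and complex V for 18. No measured value entered the symbol rule, but the rule was chosen with earlier results of these data known. The study had reported oxidative phosphorylation among the pathways enriched at metaphase II, and had followed Atp5j2 as an example. Differences at that stage are therefore not independent of what was already known. The libraries came from oocytes of C57BL/6 females that were either wild type (WT) or carried a total knockout (KO) of Alkbh5 made by CRISPR ablation of its exon 1, a demethylase gene whose product removes N6-methyladenosine from RNA. Oocytes were taken from PMSG-primed females about 3 weeks old, stripped of cumulus cells, and sampled at the germinal vesicle (GV) stage, at germinal vesicle breakdown (GVBD) and at metaphase II (MII), with 2 libraries per genotype and stage and 12 in all. Each library was a small pool of oocytes with ERCC spike-in RNA added before reverse transcription from poly(A). The knockout removes the enzyme from every cell of the female and from the whole of oocyte growth. Pools were taken by time in culture, so that KO pools named GVBD or MII may hold oocytes that had not reached that stage. The study reports that in culture most KO oocytes stayed at GV and few released a first polar body, whereas most WT oocytes did release it. A difference between KO and WT at GVBD or MII therefore cannot be told apart from a difference in meiotic stage. The study calls the libraries of a group biologically independent, but the labels name no animals, so p-values measure the spread between these libraries, which may be partly technical.

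Complex II (succinate dehydrogenase) oxidises succinate and passes electrons to ubiquinone, and complex III carries them on to cytochrome c. Complex IV (cytochrome c oxidase) reduces oxygen. Complex V (ATP synthase) makes ATP from the proton gradient that complexes III and IV maintain together with complex I. Complex II is encoded wholly in the nucleus, whereas each of the others joins nuclear subunits to a few made from mitochondrial DNA. A fully grown oocyte is transcriptionally silent, relies on mitochondria for its ATP, and loses a large part of its stored mRNA between GV and MII.

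Libraries held 28335815 to 39409401 counts on mouse genes, and a further 221927 to 838409 fell on ERCC sequences in each. Values below are counts scaled so that every library has the same ERCC total ("spike-in-scaled counts"), which track the RNA per pool, and in a pool fewer oocytes and less RNA per oocyte cannot be told apart. Alkbh5 itself was at 5355 to 10181 counts in the 6 WT libraries and at 54 to 143 counts in the 6 KO libraries. The 12 oocyte markers summed to 11189 to 19861 CPM (each library's counts scaled to a common total) and all were detected in every library, while the 14 cumulus and granulosa markers summed to 43 to 88.4 and the 5 epithelium markers to 0.677 to 61.5. Blood markers (7 genes) ranged from 3.92 to 3352 CPM. Heart and skeletal muscle markers (10 genes) ranged from 80.6 to 985, and the cardiac myosin gene Myh6 had 895 to 2785 counts in 8 libraries but 1 to 13 in the other 4, which were WT GV replicate 1, KO GVBD replicate 1 and both KO MII libraries. The KO MII libraries also stood apart from each other. Relative to the WT GV mean, the median level of 57 well-detected genes of the 4 complexes was -0.76 on the log2 scale in KO MII replicate 1 and -2.31 in KO MII replicate 2, against -1.96 and -2.46 in the WT MII libraries. Scaled by TMM, which equalises libraries on the bulk of their genes in place of the spike-in, the same medians were -0.53 and -1.03 in KO and -1.44 and -1.21 in WT.

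At the GV stage, WT oocytes already held these transcripts over a very wide range of levels. Exon length here and below is the union of all annotated exons of a gene, which can exceed the transcript used in the oocyte. Ranks and ratios between genes are therefore approximate, while the change of a given ratio from library to library does not depend on that length. Per kilobase of exon, Cox7a2, a small subunit of complex IV, was highest at 101897 ± 16390 spike-in-scaled counts per kilobase (SD, n = 2), followed by Atp5k, a small membrane subunit of ATP synthase, and Uqcrh, the hinge subunit of complex III. Cox7a2 and Atp5k did not differ beyond their spread. At the low end, Cox18, an insertase for complex IV, was at 67.4 ± 1.15 (SD, n = 2), and the haem A synthesis gene Cox15 was at 7.25 ± 2.74 (SD, n = 2). The core proteins of complex III ranked lower than the hinge subunit. Uqcrc2 stood at rank 24 of 63 in the same order, and its partner Uqcrc1, the other core protein of complex III, at rank 58. A second identifier named Atp5o was at 0 counts in all 12 libraries and the testis isoform Cox7b2 was at 0 in 10, and neither passed the filter on low counts.

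**Figure D1:**
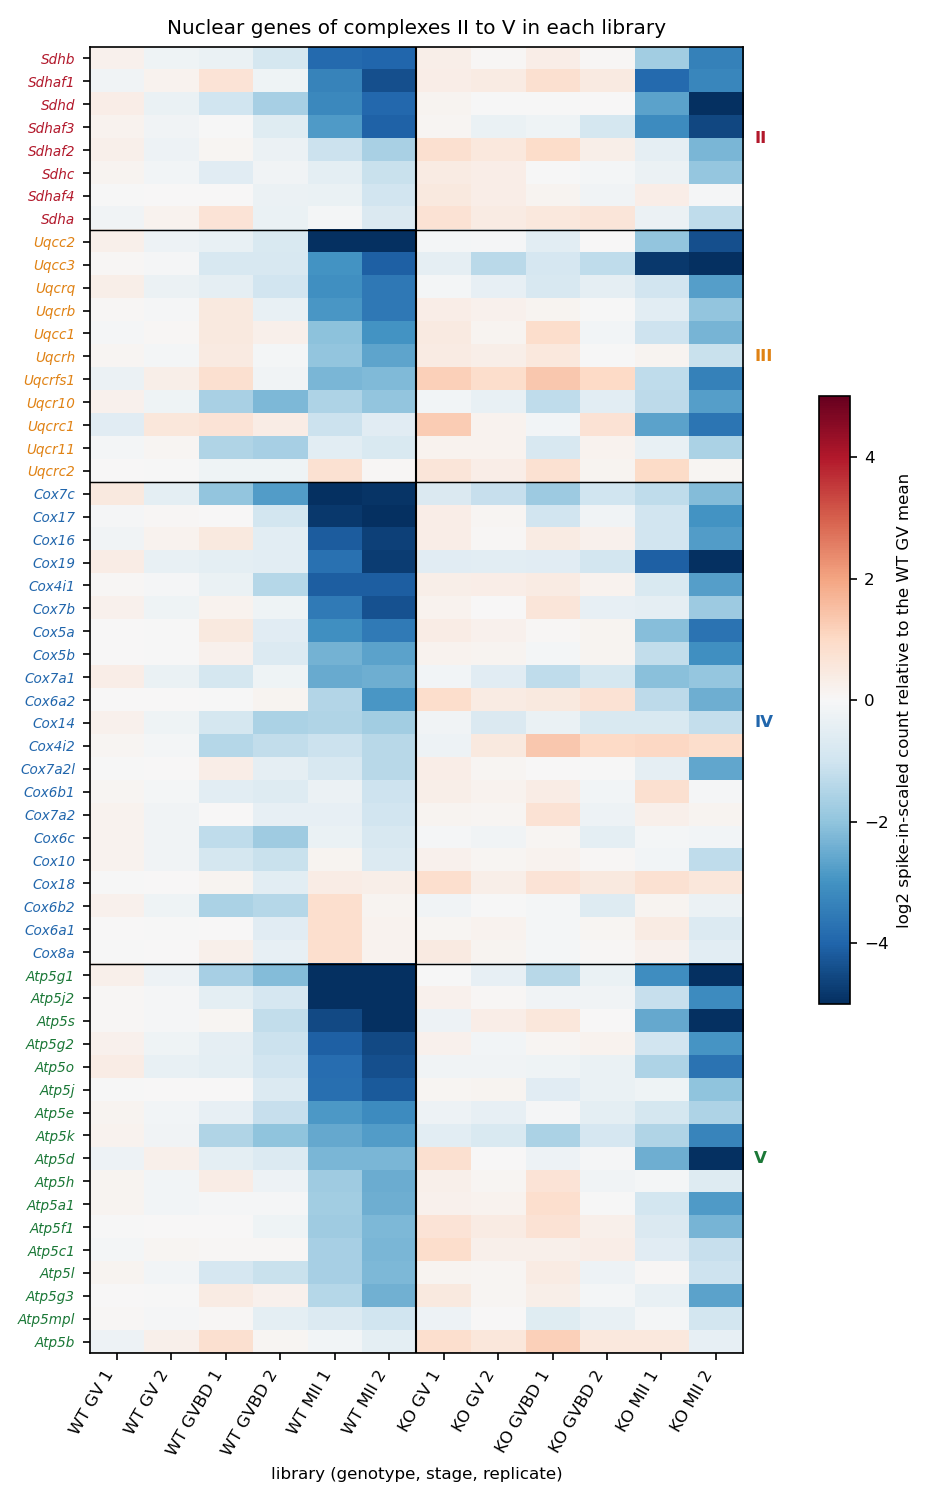
Heat map of the spike-in-scaled counts of the genes of complexes II to V with a mean of at least 50 counts, one row per gene grouped by complex and one column per library, as log2 relative to the WT GV mean (blue lower, red higher; a count of 0.5 was added). WT MII libraries are blue for most genes of complexes II, III and V, and KO MII replicate 1 is paler than KO MII replicate 2.

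From GV to MII in WT, transcripts of all 4 complexes fell, although not evenly. Of the 61 genes tested, 40 were lower at MII and 0 were higher (edgeR quasi-likelihood test, Benjamini-Hochberg adjusted p under 0.05 and a change of at least 2-fold, which is what "called", "rose" and "fell" mean below, with 41 at an unadjusted p under 0.05), whereas 30.5% of all 18816 tested genes were lower and 0.393% higher. Counts at an unadjusted p under 0.05, here and below, have no share of all genes at that threshold beside them. They therefore cannot show an excess among these genes. The median change was -2.08 on the log2 scale, against -1.06 over all tested genes. By complex, 15 of 17 tested genes fell in complex V, 8 of 11 in complex III, 5 of 8 in complex II and 12 of 25 in complex IV, with medians of -2.31, -2.27, -2.33 and -1.24. Complex IV was therefore close to the all-gene median and the other 3 lay below it, a contrast that was not itself tested. The count of 40 became 23 without WT GV replicate 1 (14.4% of all genes called) and 24 without WT GV replicate 2 (14.3%). Scaling by TMM moves the median of all genes in this comparison up by 0.92 on the log2 scale. With it 32 genes were lower and 5 higher, the latter being Cox18, Cox6a1, Cox6b2, Cox8a and Uqcrc2. The sign also turned from negative to positive, without a call, for 13 genes, all of them among the 21 that did not fall (Sdhaf4, Sdha, Sdhc, Uqcrc1, Uqcr11, Cox10, Cox15, Cox8b, Cox6b1, Cox6c, Cox7a2, Atp5b and Atp5mpl).

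Within ATP synthase the fall reached every structural module but not every subunit. Atp5j2, subunit f of the membrane sector, was at 131785 and 119411 spike-in-scaled counts in the WT GV libraries, at 89011 and 70888 at GVBD, and at 2737 and 3030 at MII. Its fall of 5.44 ± 0.50 (SE) on the log2 scale (adjusted p = 4.96e-24) is 43.6-fold. The MII libraries lay far below every earlier one. Atp5g1, one of 3 genes for the same c-ring protein, fell further still, from 23401 and 16714 at GV to 416 and 290 at MII (log2 change -5.83 ± 0.57 SE, adjusted p = 7.12e-22). Its paralogs Atp5g2 and Atp5g3 fell too, with log2 changes of -4.32 and -1.84. In counts per kilobase within a library, a ratio on which scaling has no bearing, Atp5g1 stood at 13.1 and 9.41 times Atp5g3 in WT GV and at 0.63 and 0.855 times in WT MII, and no GV and MII libraries overlapped. Peripheral stalk genes fell as a group (4 of 4 tested, from Atp5f1 at -2.01 to Atp5o at -4.13). The F1 head split. Atp5a1, Atp5c1, Atp5d and Atp5e fell (log2 changes of -2.06, -1.95, -2.31 and -3.0), while Atp5b, the catalytic beta subunit, changed by -0.32 ± 0.48 (SE, adjusted p = 0.683). Atp5b was at 2774 and 3949 at GV and at 3018 and 2354 at MII, so its groups overlapped. Atp5mpl, a small proteolipid of the membrane sector, also did not pass (-0.83 ± 0.44 SE, adjusted p = 0.146). Atp5l, an accessory subunit of the membrane sector, changed by -1.94 ± 0.45 (SE, adjusted p = 0.000146).

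Complex IV held both steep falls and genes whose level changed little. Cox7c, a small nuclear subunit, went from 25610 and 12954 at GV through 4589 and 2627 at GVBD to 559 and 615 at MII in WT (log2 change -5.04 ± 0.55 SE, adjusted p = 6.72e-18). The stages did not overlap at either step. Cox4i1, the ubiquitous form of the largest nuclear subunit, fell from 16345 and 15329 to 911 and 898 (log2 change -4.13 ± 0.53 SE, adjusted p = 2.86e-13), which is 17.5-fold. Cox5a and Cox5b, which flank the catalytic core, fell (log2 changes of -3.28 and -2.49), and Cox7b fell by 3.91. By contrast, Cox6c, Cox6b1 and Cox7a2 changed by -0.56, -0.64 and -0.66 and did not pass the test. Cox6a1 and Cox8a went the other way in value, at 0.54 ± 0.48 (SE, adjusted p = 0.444) and 0.55 ± 0.49 (SE, adjusted p = 0.446), and both were among the genes called higher under TMM scaling. Of the 8 complex IV assembly factors, 4 fell: the copper chaperones Cox17 and Cox19, and Cox14 and Cox16. Cox10, Cox11, Cox15 and Cox18 did not pass, and Cox11 and Cox15 had under 70 spike-in-scaled counts in every library.

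Complex III showed the same split inside its core. Uqcrc2 was at 11743 and 11511 at GV and at 19943 and 12161 at MII in WT (log2 change 0.47 ± 0.45 SE, adjusted p = 0.498), the highest value in the complex. Uqcrfs1, the Rieske iron-sulphur protein, was at 669 and 990 at GV and at 166 and 178 at MII, a fall of 2.27 ± 0.55 (SE, adjusted p = 0.000302) on the log2 scale. The lowest value belonged to Uqcc2, an assembly factor for cytochrome b, which went from 6328 and 4528 to 150 and 154 (log2 change -5.16 ± 0.57 SE, adjusted p = 3.09e-17). All 3 assembly factors fell, and so did 4 of the 5 small subunits, with Uqcr11 as the exception at -0.64 ± 0.49 (SE, adjusted p = 0.354).

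In complex II the catalytic pair parted. Sdha, the flavoprotein, was at 2130 and 2715 at GV and at 2238 and 1463 at MII in WT (log2 change -0.39 ± 0.48 SE, adjusted p = 0.617). Sdhb, the iron-sulphur subunit that binds it, went from 2887 and 2115 to 166 and 158 (log2 change -3.95 ± 0.56 SE, adjusted p = 5.24e-11). The Sdhb libraries were separated by stage, whereas the Sdha libraries overlapped. Likewise the membrane anchor Sdhd fell (log2 change -3.58) and its partner Sdhc changed by -0.76 ± 0.47 (SE, adjusted p = 0.227). Per kilobase, Sdhb stood at 2.5 and 1.44 times Sdha in WT GV and at 0.137 and 0.199 times in WT MII. Of the assembly factors, Sdhaf1, Sdhaf2 and Sdhaf3 fell and Sdhaf4, the chaperone for SDHA, did not pass (-0.62 ± 0.44 SE, adjusted p = 0.312).

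The 3′ ends of these mRNAs are shown because reverse transcription started from the poly(A) tail, so that in these counts a change in tail length and a change in RNA amount cannot be told apart. The study assayed tail length separately by PCR, without replication, and its primers include one for Atp5j2. It reports that tails of the transcripts it assayed shortened during maturation in WT and that this was impaired in KO. In GENCODE M21 annotation (GRCm38), 30-base stretches around the polyadenylation signal are given first for the 4 genes that differed between KO and WT at MII (below) and then for 3 complex IV genes that did not fall in WT, in the sense direction with the AATAAA hexamer in capitals.
Atp5j2, chr5:145183710-145183739 (minus): gaactagtgtccAATAAAaggtgactggtt
Atp5j, chr16:84827876-84827905 (minus): tcaaaaaattcaAATAAAcattcatttcac
Cox7b, chrX:106022420-106022449 (plus): tgttgctgaagaAATAAAggctatctgtta
Cox7c, chr13:86044819-86044848 (minus): gaaaaaattgtaAATAAActaatgacataa
Cox6a1, chr5:115345655-115345684 (minus): ggagatgccttaAATAAAtaacttaaactc
Cox6b2, chr7:4751796-4751825 (minus): ctttgtgccacaAATAAAgttattgtgctg
Cox8a, chr19:7215166-7215195 (minus): cccctttgtaacAATAAAgtctatttaaac
All 7 stretches lie in the last exon of the transcript, in its annotated 3′ untranslated region. The hexamer was present within the last 40 bases of the chosen transcript for 39 of 60 genes of the complexes (65%), against 61.2% of 13919 tested genes with an annotated end, for 25 of the 40 genes that fell (62.5%) and for 14 of the 20 that did not (70%), while 56.2% of all genes that fell and 63.2% of those that did not held it. Cytoplasmic polyadenylation elements, which direct tail lengthening during maturation, were searched as TTTTAT or TTTTAAT on the sense strand of the last 100 bases. For both motifs, only the 3′ untranslated region was searched where it was shorter than the window. Its median length was 242 bases in these genes and 926 over all tested genes, so the windows were not equal. The elements were found in 6 of the 60 genes (10%), while 18.4% of the 13919 held one. All 6 (Atp5s, Cox19, Cox5a, Cox6a2, Sdhaf2 and Uqcc1) were among the 40 that fell in WT. The example from Cox5a, with the element in capitals, is shown because Cox5a fell in both genotypes.
Cox5a, chr9:57532330-57532359 (plus): tgcctggaaatgTTTTATttgaacaaattt
None of the 20 genes that did not fall held either element in this window, while over all tested genes 11.6% of those that fell and 21.2% of the others held one. A match is a description of the letters in the annotated transcript, whose end may not be the one used in the oocyte. Transcripts of the complexes were short, with a median of 829 bases against 2901 over all tested genes, and those that fell and those that did not had medians of 851 and 708.

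Counted by calls, the decline in WT came mainly after GVBD, though not for every gene. Uqcr10 was at 14854 and 11086 at GV, at 4196 and 2735 at GVBD and at 4345 and 3261 at MII, so its fall in value lay before GVBD. Uqcr11 and Atp5k were also well below their GV levels by GVBD. Between GVBD and MII 32 of the 61 fell and 1 rose, where 27.1% and 0.682% of all 19211 genes tested did so, and all 32 were also among the 40 that fell from GV to MII. TMM scaling gave 29 lower and 9 higher, and the 33 calls became 14 without WT GVBD replicate 1 (9.05% of all genes called) and 19 without WT MII replicate 2 (12.9%). From GV to GVBD, 0 of 61 genes were called by edgeR (0.0511% of all genes), 12 had an unadjusted p under 0.05, and 7 were called lower by DESeq2, which called 1.9% of all genes. Those 7 were Atp5g1, Atp5k, Cox6b2, Cox6c, Cox7c, Uqcr10 and Uqcr11. Among them Cox6c stood at 74405 and 57354 at GV, at 27080 and 18845 at GVBD, and at 51255 and 37967 at MII, so the GVBD libraries were below those on either side. Cox6b2, an isoform best known from testis, was at 26286 and 19863 at GV, at 7691 and 8575 at GVBD, and at 40555 and 24796 at MII. Its rise from GVBD to MII was 2.01 ± 0.62 (SE) on the log2 scale (adjusted p = 0.00709), the single rise among the genes of the complexes. In KO, Cox6c was at 62113 and 57187 at GV, at 70501 and 46809 at GVBD, and at 61388 and 60066 at MII. The KO GVBD libraries thus disagreed, the first above and the second below all KO libraries of the other stages. In KO 0 of 61 genes were called between GV and GVBD by edgeR or DESeq2 (0.22% of all genes by edgeR), and the unadjusted p was under 0.05 for 1. Whether the GV to GVBD change differed between genotypes was not tested.

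In KO the fall from GV to MII was smaller in value and far less certain. On the spike-in scale the smaller value rested on KO MII replicate 1. Relative to the WT GV mean, the median level of the well-detected genes was -0.76 in that library and -2.31 in KO MII replicate 2. The WT MII libraries were at -1.96 and -2.46. Under TMM scaling both KO MII libraries (-0.53 and -1.03) lay above both WT MII libraries (-1.44 and -1.21). Only 6 of the 61 genes fell and 0 rose by edgeR (29 at an unadjusted p under 0.05), against 3.28% and 0.00533% of all 18777 tested genes. Leaving out KO MII replicate 1 brought the count to 45 (and the share of all genes called to 54.2%), and leaving out KO MII replicate 2 brought it to 27 (16.9%), whereas it was 0 without either KO GV library. The median change was -1.41 on the log2 scale, against -1.17 over all tested genes, and by complex it was -2.14 in complex II, -1.60 in complex III, -0.75 in complex IV and -1.50 in complex V. TMM scaling turned complex IV to 0.28 and left the other 3 below 0. The 6 genes were the assembly factors Sdhaf1 (-3.93), Sdhaf3 (-3.60) and Cox19 (-4.16), and the subunits Sdhd (-3.50), Cox5a (-3.03) and Uqcrc1 (-3.93). Heart markers were held by both KO GV libraries and nearly lacking in both KO MII libraries, and the part of heart RNA in the Uqcrc1 fall was not tested. Of the 6 genes, all except Uqcrc1 also fell in WT, where Sdhaf1 changed by -3.82, Sdhaf3 by -3.33, Cox19 by -4.24, Sdhd by -3.58 and Cox5a by -3.28. Cox5a, for example, was at 13852 and 12482 in KO GV and at 2412 and 821 in KO MII, beside 10784 and 10492 in WT GV and 1279 and 916 in WT MII. From GVBD to MII 11 of 60 tested genes fell in KO and 0 rose, against 7.12% and 0.0779% of all 17966 tested genes. They included 4 of the 8 complex II genes (Sdhaf1, Sdhaf3, Sdhb and Sdhd), and 0 were called when any one of KO MII replicate 2 or the 2 KO GVBD libraries was left out, whereas 36 were called without KO MII replicate 1, a setting that called 32.6% of all genes.

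Over the 40 genes that fell in WT, the median change from GV to MII was -3.24 in WT and -1.79 in KO, and 33 of the 40 had a smaller fall in KO by value. The other 21 tested genes had medians of -0.56 in WT and -0.35 in KO. The 40 genes were picked by their fall in WT, a choice that by itself favours a smaller fall in KO. No difference between genotypes is therefore read from these medians or from the count of 33. Tested gene by gene as a genotype by stage interaction, 0 of the 61 differences were called by edgeR, as were 0% of all 20807 tested genes. In the same test 18 had an unadjusted p under 0.05. The share of all genes at that threshold is not given here, so the count of 18 is not read as an excess. By DESeq2 4 were called (Atp5j, Atp5j2, Cox7b and Cox7c, all with a smaller fall in KO), which called 0.721% of all genes. Without KO MII replicate 2 the edgeR count was 13 (1.24% of all genes). The median difference was 1.42 on the log2 scale in complex V, with 15 of 17 genes above 0, against -0.20 in complex II, 0.17 in complex III, 0.59 in complex IV and -0.07 over all tested genes. Relative to all tested genes the complex V median was 1.48, and it was 0.86 without KO MII replicate 1 and 1.74 without WT GV replicate 2. The same quantity ranged from 0.03 to 0.55 in complex III, from 0.46 to 0.95 in complex IV and from -0.46 to 0.09 in complex II when 1 library was left out.

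**Figure D2:**
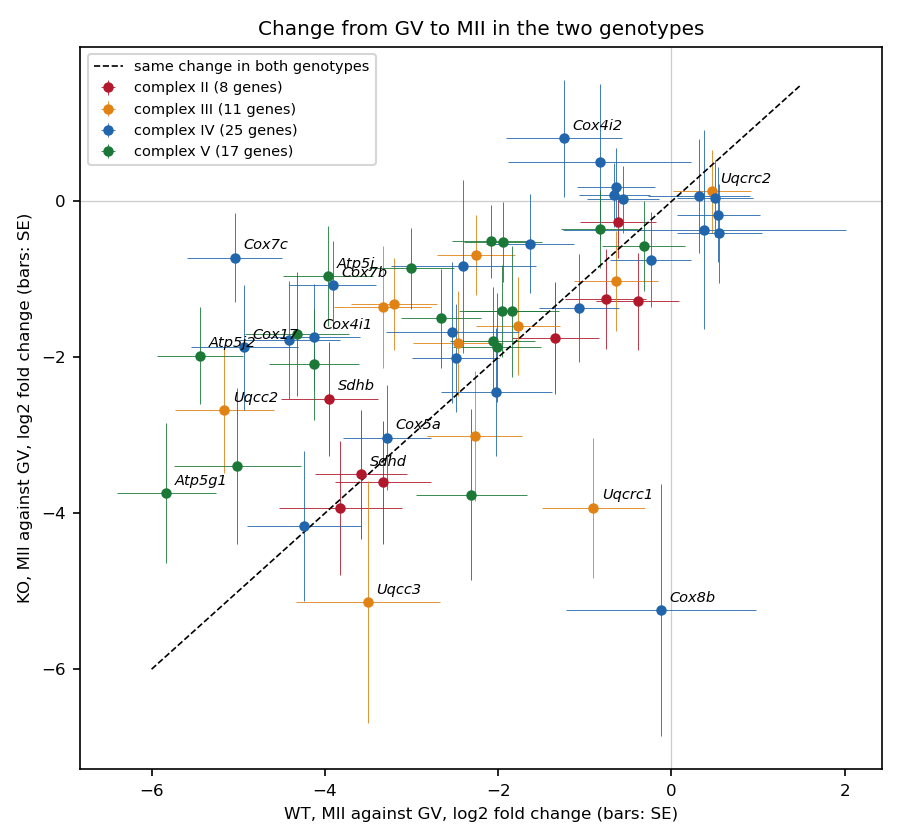
Log2 fold change from GV to MII in WT (horizontal axis) and in KO (vertical axis) for the 61 tested genes, coloured by complex, with SE bars and a dashed line where both genotypes change alike. Atp5j2, Cox7c, Cox7b, Atp5j and Cox4i1 lie above the line (smaller fall in KO), Cox5a and Sdhd lie near it, and Uqcrc1 and Cox8b lie below it.

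Compared stage by stage, KO and WT oocytes differed in these genes mainly at MII. At GV, 0 of 61 genes were called by edgeR (0.0977% of all 19452 tested genes), with 9 at an unadjusted p under 0.05 and 2 called by DESeq2 (Cox7c lower, Uqcrfs1 higher), which itself called 3.48% of all genes. The median difference of KO from WT was 0.16 on the log2 scale, beside 0.36 over all tested genes, and turned to -0.18 under TMM scaling, which moves the all-gene median by -0.35. At GVBD 1 of 61 was called, Cox4i2 (2.54% of all 19462 tested genes), and the medians were 0.45 and 0.23. At MII 4 of 61 genes were higher in KO and 0 lower, against 0.501% and 0.302% of all 17566 tested genes, and the medians were 0.66 and 0.30. By complex the MII medians were 0.17 in complex II, 0.27 in complex III, 0.63 in complex IV and 1.54 in complex V, where 16 of 17 genes were above 0. TMM scaling turned complexes II and III to -0.31 and -0.14 and gave 0.28 and 1.21 for complexes IV and V. Relative to all tested genes, the complex V median of 1.25 became 0.40 without KO MII replicate 1 and lay between 1.11 and 1.28 without any other library. The complex IV median of 0.33 became 0.04 without WT MII replicate 1 and 0.87 without KO MII replicate 1, and the complex III median of -0.03 ranged from -0.23 to 0.29, so its sign depended on the library left out. With the 3 stages fitted together and stage as a term, 0 of 61 genes were called by edgeR and 3 by DESeq2 (1.26% of all 22004 tested genes passed by edgeR and 6.16% by DESeq2, and the unadjusted p was under 0.05 for 12 of the 61).

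**Figure D3:**
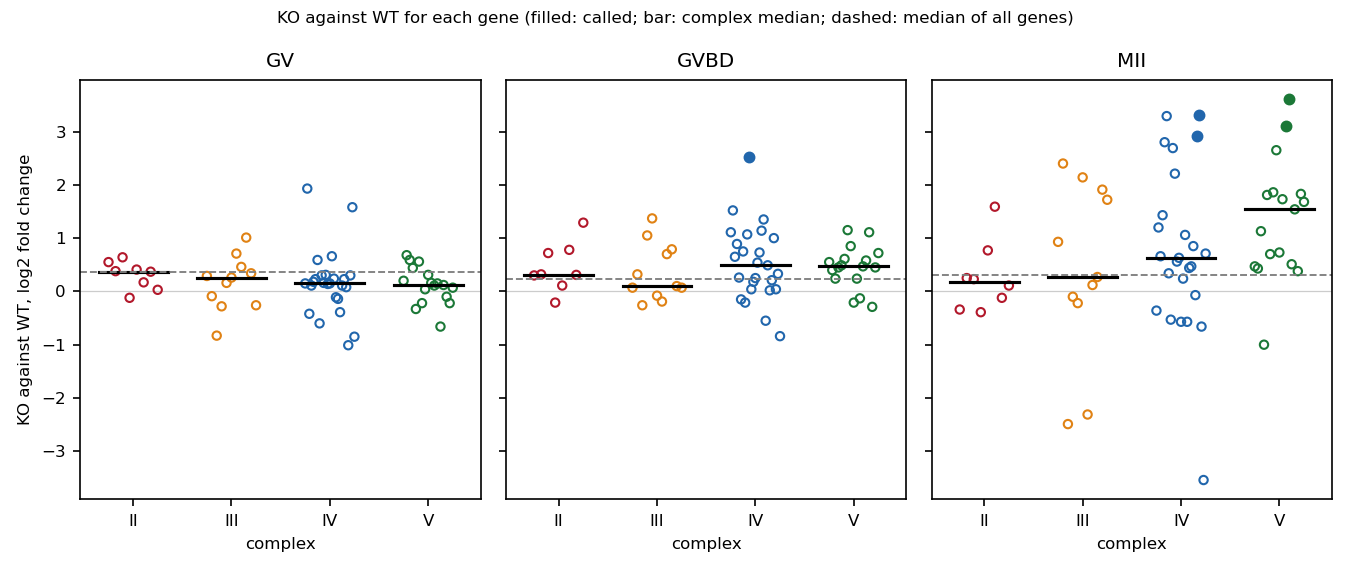
Difference between KO and WT (log2 fold change, vertical axis) for each tested gene at GV, GVBD and MII (panels), grouped by complex on the horizontal axis. Filled points were called, bars are complex medians and the dashed line is the median of all tested genes, and at MII the complex V bar stands at 1.54 against 0.30 for all genes.

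The 4 genes called at MII were Atp5j2, Cox7c, Atp5j and Cox7b. Atp5j2 was at 2737 and 3030 in WT and at 56128 and 14231 in KO, a difference of 3.61 ± 0.74 (SE) on the log2 scale (adjusted p = 0.000485). Both KO libraries were above both WT libraries, though they differed from each other more than the WT pair did. Cox7c was at 559 and 615 in WT and at 7632 and 4039 in KO (3.31 ± 0.85 SE, adjusted p = 0.0186). Atp5j, coupling factor 6 of the peripheral stalk, was at 1284 and 939 in WT and at 15013 and 4240 in KO (3.11 ± 0.81 SE, adjusted p = 0.0216). Cox7b was at 3439 and 1954 in WT and at 29335 and 11414 in KO (2.92 ± 0.75 SE, adjusted p = 0.0193). The genotypes did not overlap at MII for any of these 4 genes, whereas at GV Cox7c was lower in value in KO (-1.01 on the log2 scale, not called by edgeR). Both KO MII libraries stayed below the KO GV libraries for each of these genes. Without either WT MII library or KO MII replicate 1 no gene of the complexes was called, whereas 9 were called without KO MII replicate 2 (2.78% of all genes), and TMM scaling retained Cox7b alone (2.58 on the log2 scale, adjusted p = 0.0461). Scaling does not enter the ratio of Atp5j2 to Atp5mpl per kilobase, which stood at 1.18 and 1.17 for the WT GV libraries, fell to 0.0412 and 0.0559 by MII, and in KO went from 1.61 and 1.21 at GV to 0.561 and 0.249 at MII, so that KO MII lay between WT MII and either GV group.

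**Figure D4:**
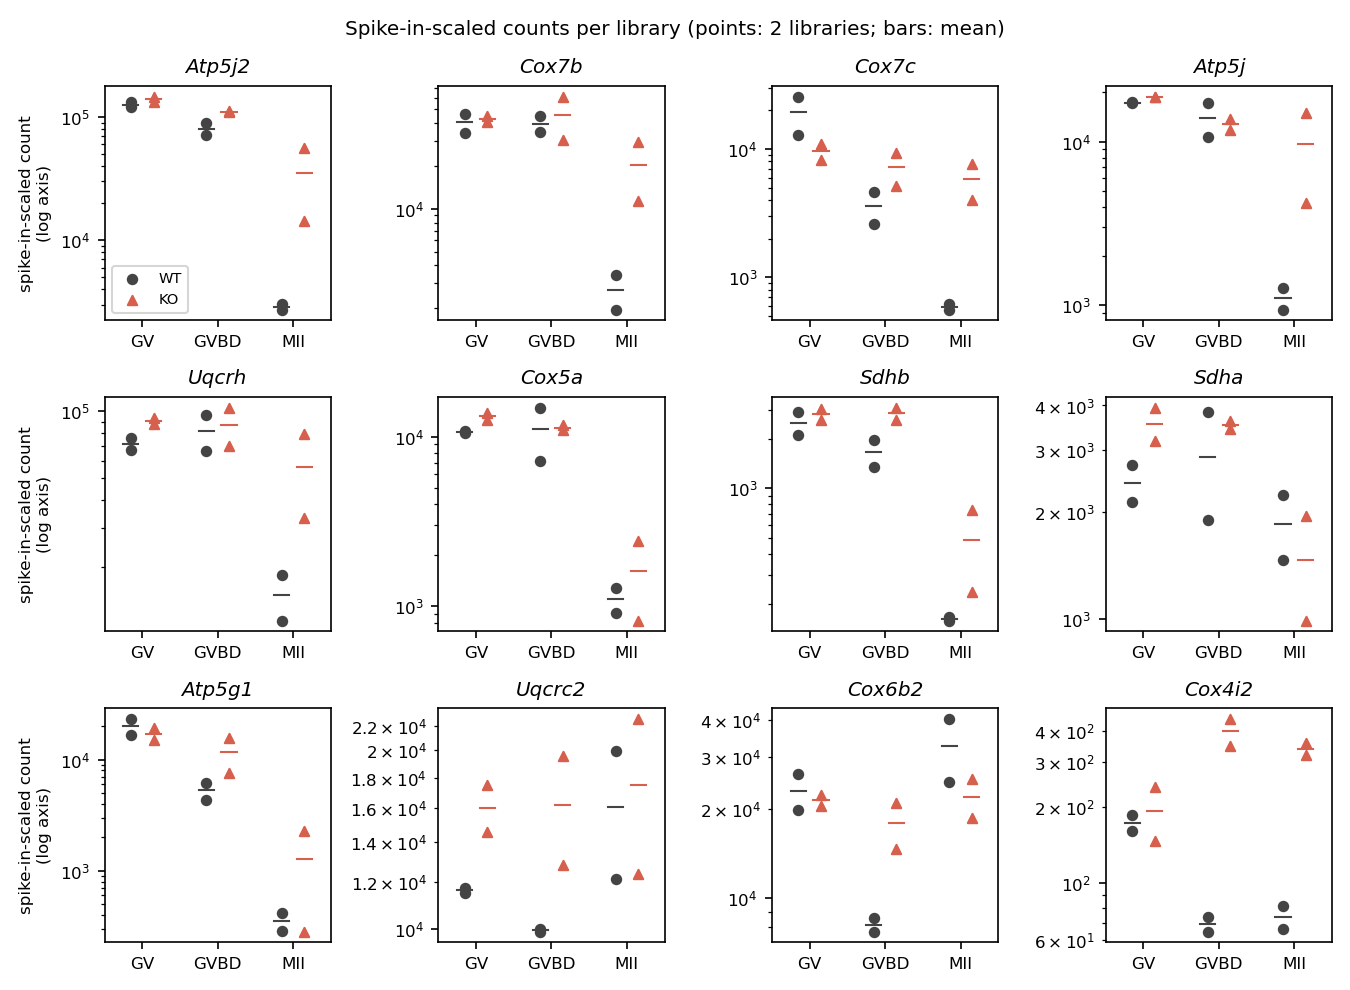
Spike-in-scaled counts (log axis) of 12 genes in each of the 12 libraries by stage, with WT as grey circles, KO as red triangles and a bar at the mean of 2 libraries. Atp5j2, Cox7b, Cox7c and Atp5j are higher in both KO MII libraries than in both WT MII libraries, Cox5a and Sdha overlap there, and Cox4i2 separates the genotypes at GVBD and MII.

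Other genes differed in the same direction at MII without passing the test. Cox17 was at 40.7 and 35.7 in WT and at 602 and 145 in KO (3.29 ± 1.04 SE, adjusted p = 0.118), and Cox4i1 was at 911 and 898 in WT and at 9368 and 2332 in KO (2.69 ± 0.83 SE, adjusted p = 0.0984). Atp5g2 and Uqcc2 were 2.65 and 2.40 higher on the log2 scale, with adjusted p = 0.28 and 0.299. In all, 28 of 61 genes were higher in both KO MII libraries than in both WT MII libraries (22.1% over all tested genes), and 4 were lower in both (10.3% over all), namely Uqcc3, Uqcrc1, Cox8b and Atp5d. Uqcrh was at 18412 and 11470 in WT and at 79148 and 33173 in KO (1.91 ± 0.65 SE, adjusted p = 0.171). Core subunits whose difference was smaller than its error were Sdha (-0.34 ± 0.82 SE), Sdhc (-0.12 ± 0.75 SE), Sdhd (0.11 ± 0.87 SE), Uqcrc2 (0.12 ± 0.68 SE), Uqcrfs1 (0.27 ± 0.96 SE), Cox5a (0.56 ± 0.83 SE), Cox5b (0.63 ± 0.82 SE), Atp5a1 (0.47 ± 0.80 SE), Atp5b (0.43 ± 0.78 SE) and Atp5g3 (0.73 ± 0.91 SE), with Sdhd, Uqcrc2 and Uqcrfs1 below 0 under TMM scaling. Sdhb (1.59 ± 0.92 SE), Atp5c1 (1.13 ± 0.83 SE) and Atp5g1 (1.86 ± 0.88 SE) had larger values with adjusted p = 0.852, 1 and 0.56, although without KO MII replicate 1 Sdhb was at 0.55 and Atp5g1 turned to -0.32. Uqcrc1 was lower in value (-2.31 ± 1.06 SE, adjusted p = 0.525). The lowest values of their complexes were those of Sdhaf3 (-0.39), Uqcc3 (-2.49), Cox8b (-3.54) and Atp5d (-1.0), none of them called.

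Among tissue-restricted isoforms of complex IV, Cox4i2 was the one called between the genotypes at any stage. It replaces Cox4i1 in tissues such as lung. It was at 186 and 161 in WT GV, at 64.4 and 73.5 in WT GVBD and at 81.4 and 66 in WT MII, and in KO at 147 and 240, at 446 and 348, and at 359 and 321 in the same order. The genotypes overlapped at GV and were apart at the later stages. At GVBD the difference was 2.52 ± 0.61 (SE) on the log2 scale (adjusted p = 0.0268), which is 5.74-fold, while at MII it was 2.21 ± 0.99 (SE, adjusted p = 0.494). At GVBD the libraries of the genotypes were also apart for Cox6a2 and Cox6b2 (higher in KO) and for Cox7a1 and Cox8c (lower in KO), none of them called. Cox7a1 was apart only by 83.1 in a WT library against 82.6 in a KO library. The share of all genes that were apart at GVBD is not given here. At MII 22.1% of all tested genes were apart with KO higher and 10.3% with KO lower, so such separation was common. The Cox4i2 call was lost under TMM scaling, in the fit of all 12 libraries together, with a replicate block, and when either WT GVBD library or KO GVBD replicate 1 was left out. Cox4i2 remained a minor form throughout, at 0.0101 to 0.271 of Cox4i1 per kilobase. Cox6b2 was not minor. Per kilobase it was at 0.829 and 0.723 of Cox6b1 in WT GV, at 0.378 and 0.459 in WT GVBD and at 1.7 and 1.73 in WT MII, while in KO it stayed between 0.499 and 0.667 in all 6 libraries. At MII neither gene alone was called between genotypes (Cox6b2 -0.57 ± 0.64 SE, Cox6b1 1.06 ± 0.67 SE).

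The heart isoforms Cox6a2, Cox7a1 and Cox8b need to be read beside the heart markers. Leaving out Tnni3, which was at 51.7 to 965 CPM in every library, the other 9 heart and skeletal muscle markers summed to 2.01 to 13.3 CPM in the 4 libraries nearly free of Myh6 and to 85.5 to 237 in the other 8. Cox8b was at 0 and 6.58 spike-in-scaled counts in WT GV replicate 1 and KO GVBD replicate 1, at 4 and 0 in the KO MII libraries, and at 10.6 to 115 in the other 8. Its low values thus lay in the libraries with few heart marker counts. Cox6a2 behaved otherwise, with 265 in both WT GV libraries although the heart markers other than Tnni3 summed to 10.3 in the first and to 139 in the second. It fell from GV to MII in WT, to 95.7 and 35.2 (log2 change -2.02 ± 0.64 SE, adjusted p = 0.00736), as did Cox7a1 (-2.53) and Cox8c, an isoform best known from testis (-2.40). Uqcrc1, which is abundant in heart, was lowest in the KO MII libraries, where these markers were few, but did not follow the markers across all libraries. It was at 641 and 299 in KO GV, at 240 and 440 in KO GVBD and at 41 and 20.8 in KO MII, and at 126 and 179 in WT MII. Its level in the 2 earlier libraries nearly free of Myh6 was 182 (WT GV replicate 1) and 240 (KO GVBD replicate 1), above both KO MII libraries. The part of heart RNA in the Uqcrc1 values was not tested.

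Partner genes outside the symbol rule fell in WT too. Of 28 tested nuclear partners (other assembly factors and subunits, the cytochrome genes Cyc1 and Cycs, and the mitochondrial RNA-binding pair Lrpprc and Slirp), 21 fell from GV to MII in WT, 6 fell in KO, and only 1 was higher in KO at MII. That 1 was Pet100, a complex IV assembly factor, at 3.70 ± 0.85 (SE) on the log2 scale (adjusted p = 0.00425). Pet100 had 718 and 1208 counts in the WT libraries at MII, beside 8681 and 8899 in those of KO, and the call was lost under TMM scaling (adjusted p = 0.0547) and without either WT MII library. The inhibitor of ATP synthase, Atpif1, fell in WT by 4.19 on the log2 scale, and at MII it was 1.85 ± 0.87 (SE) higher in KO without passing (adjusted p = 0.568). Of the 6 mitochondrially encoded subunits of complexes III, IV and V in the lists, mt-Cytb, mt-Co1, mt-Co2, mt-Co3 and mt-Atp8 changed by -0.40 to 0.08 in WT from GV to MII and none of these 5 was called in any KO against WT comparison. The sixth, mt-Atp6, had 33208 and 3849 counts in WT at MII, beside 603 and 1348 in KO. It was called lower in KO at MII (-4.17 ± 0.83 SE, adjusted p = 0.000256), but without WT MII replicate 1 the difference was -1.24 and not called, and mt-Atp6 overlaps mt-Atp8 in the mitochondrial genome. Median changes from GV to MII in WT were -2.70 for 46 complex I genes (38 lower), -2.65 for 78 mitochondrial ribosomal protein genes (58 lower) and -3.58 for 81 tested cytosolic ribosomal protein genes (74 lower). In KO these medians were -1.65, -2.28 and -2.22, and at MII the KO minus WT medians were 0.74, 0.44 and 0.94 with 1, 1 and 7 genes called higher. Genes of complexes II to V, at -2.08, -1.41 and 0.66 in the same order, fell less in WT than these 3 gene families in value.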

How the data were processed

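Counts per gene were deposited by the authors for 12 libraries. Per the methods, reads were trimmed, aligned to GRCm38/mm10 with the ERCC sequences by HISAT2 and kept where uniquely mapped, which lowers counts of genes with near-identical copies. The submitters' processing notes name cutadapt 1.9, HISAT2 2.0.4, StringTie 1.3.4d, DESeq2 and edgeR, and the study's reporting summary gives other versions of the first pair. The annotation and strand setting are not given in the sources used here, so overlapping genes are uncertain. The labels describe a bulk library protocol and the methods a low-input poly(A) one with PCR and no molecular identifiers, so reads are not independent molecules.

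Identifiers were matched to GENCODE M21 symbols (52073 of 56691, 91.9%). All tests ran on the deposited counts over every gene that passed edgeR's filter, with library sizes proportional to ERCC totals, in R 4.3.3 with edgeR 4.0.16 (quasi-likelihood test), and p-values were adjusted over all tested genes by Benjamini-Hochberg. SE is the log2 fold change divided by the square root of F. The 11 comparisons used only the libraries they name. DESeq2 1.42.0, TMM scaling, stricter spike-in choice, no filter, 1 joint model, a block on replicate number and the omission of single libraries were alternatives. Scripts were tested on simulated data. Named genes were the core subunits, the tissue-restricted isoforms, called genes (at most the 5 highest and 5 lowest), the highest and lowest gene per complex at MII, and assembly factors. Marker sums are CPM computed from the counts. Members and lists were chosen with earlier results of these data known. Genes named for the 3′ ends, ratios and partner lists beyond that rule were chosen after their values were seen.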

Additional observations from a re-analysis of the deposited data

How the results depend on the processing

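Counts of called genes depended on the setting more than fold changes did. Each count of called genes of the complexes is followed by the percent of all tested genes called in that setting. At GV, KO against WT gave 0 calls, and 2 without the filter on low counts (2.27%) or by DESeq2 (3.48%). At GVBD the 1 call became 2 by DESeq2 (4.63%) and 0 under TMM (0.149%), in the joint model of 12 libraries (0.0668%) or with a replicate block (1.1%). At MII the 4 calls became 1 under TMM (0.245%), 7 by DESeq2 (1.97%), 11 in the joint model (2.07%) and 0 with a replicate block (0.0228%). Over all stages 0 became 6 without the filter (3.57%), 3 by DESeq2 (6.16%) and 1 with the block (3.06%). From GV to GVBD in WT, 0 became 7 without the filter (1.8%), 7 by DESeq2 (1.9%) and 5 with the block (0.93%). From GVBD to MII in KO, 11 became 3 under TMM (2.52%), 17 by DESeq2 (12.6%), 21 in the joint model (15.2%) and 22 with the block (13.6%). From GV to MII in KO, 6 became 18 without the filter (9.32%), 20 by DESeq2 (16.3%), 24 in the joint model (17.1%) and 18 with the block (13.1%). The genotype by stage interaction went from 0 to 3 under TMM (0.341%), 4 without the filter (1.11%) and 4 by DESeq2 (0.721%). Leaving out 1 library gave 0 to 2 calls at GV, 0 to 1 at GVBD, 0 to 9 at MII, 0 to 1 over all stages, 0 to 1 from GV to GVBD in WT, 0 to 2 in KO, 14 to 30 from GVBD to MII in WT, 0 to 36 in KO, 23 to 41 from GV to MII in WT, 0 to 45 in KO and 0 to 13 for the interaction. The cause was not tested. The median of the 61 genes relative to all tested genes ranged over left-out libraries from -0.32 to -0.05 at GV, 0.14 to 0.31 at GVBD, 0.12 to 0.45 at MII, 0.13 to 0.29 over all stages, -0.41 to -0.22 and -0.05 to 0.12 from GV to GVBD in WT and KO, -1.04 to -0.67 and -0.41 to -0.11 from GVBD to MII, -1.22 to -0.81 and -0.42 to -0.06 from GV to MII, and 0.46 to 0.74 for the interaction.

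Replicate numbers were not shown to pair the libraries. Differences between replicates 1 and 2 correlated across 13273 genes at -0.221 between the genotypes for GV, at 0.137 for GVBD, at -0.183 for MII, at 0.222 between WT GVBD and MII, at -0.224 between KO GVBD and MII, and at -0.054 to 0.082 in the other 4 comparisons of stages. With numbers crossed, an alternative chosen after seeing the data, 0 of the 61 genes were called at GV (1.12% of all genes), 0 at MII (0%) and 0 of 60 from GVBD to MII in KO (1.14%).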
